A study of Homo sapiens with 20 samples.

Results

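The 8 human genes that encode ligands of the activating receptor NKG2D are ULBP1, ULBP2, ULBP3, RAET1E, RAET1G, RAET1L, MICA and MICB. They were chosen with earlier results of these libraries known and found by name, and all 8 were present among the 36346 gene names of every library. They took up 19 of the 40117 rows, because MICA had 5 rows and MICB had 8, and rows that shared a name were summed. All 8 passed the filter on low values in both cell lines.

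The libraries came from the established colorectal cancer lines HT29 and SW480, 72 h after reverse transfection with RNAiMAX. SCR libraries received a scrambled siRNA, and silenced libraries received siPOLR1D2 or siPOLR1D3, which target POLR1D, a subunit shared by RNA polymerases I and III. HT29 gave 4 SCR, 2 siPOLR1D2 and 2 siPOLR1D3 libraries, and SW480 gave 6, 3 and 3. Each line stands for 1 tumor, HT29 with a focal amplification and SW480 with a whole-chromosome gain that covers POLR1D, and no line without such a gain is among the libraries.

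NKG2D sits on natural killer cells and many T cells, and its ligands are MHC class I-like proteins that mark stressed, infected or transformed cells for attack. The products of ULBP1, ULBP2, ULBP3 and RAET1L are held in the membrane by a GPI anchor, and those of MICA, MICB and RAET1E by a transmembrane segment. Colorectal tumors often carry these proteins, and tumor cells can shed them from the surface.

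The members lie on chromosome 6 in 2 clusters. The 6 ULBP and RAET1 genes span 186 kb at chr6:149883375-150069095 (GRCh38), and MICA and MICB span 111 kb at chr6:31399784-31511124. Sequences from the RefSeq promoter table (GRCh38.p14) were matched for all 8 members. The 250 bases before the annotated start are printed for ULBP1, RAET1E and ULBP2, whose silenced libraries lay lowest against SCR in SW480, and for RAET1G, whose silenced libraries all lay above SCR in HT29. They are written 5′ to 3′ on the strand of each gene, at chr6:149963693-149963942 (plus) for ULBP1, chr6:149898114-149898363 (minus) for RAET1E, chr6:149941764-149942013 (plus) for ULBP2 and chr6:149923122-149923371 (minus) for RAET1G. Capitals mark GGGCGG on either strand, which RAET1E lacks.
ULBP1: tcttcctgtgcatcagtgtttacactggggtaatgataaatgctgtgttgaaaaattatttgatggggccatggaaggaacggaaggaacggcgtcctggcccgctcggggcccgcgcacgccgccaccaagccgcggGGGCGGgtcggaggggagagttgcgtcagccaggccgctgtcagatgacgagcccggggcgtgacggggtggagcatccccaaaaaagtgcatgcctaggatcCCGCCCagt
RAET1E: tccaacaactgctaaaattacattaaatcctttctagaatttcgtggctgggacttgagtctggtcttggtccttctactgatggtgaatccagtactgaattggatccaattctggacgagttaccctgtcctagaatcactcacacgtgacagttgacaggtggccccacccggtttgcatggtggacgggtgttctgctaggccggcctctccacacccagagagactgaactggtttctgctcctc
ULBP2: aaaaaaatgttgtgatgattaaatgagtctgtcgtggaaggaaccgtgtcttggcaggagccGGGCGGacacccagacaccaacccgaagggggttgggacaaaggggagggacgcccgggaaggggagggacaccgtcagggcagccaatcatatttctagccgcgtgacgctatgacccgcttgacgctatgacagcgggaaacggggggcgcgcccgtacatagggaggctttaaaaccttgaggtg
RAET1G: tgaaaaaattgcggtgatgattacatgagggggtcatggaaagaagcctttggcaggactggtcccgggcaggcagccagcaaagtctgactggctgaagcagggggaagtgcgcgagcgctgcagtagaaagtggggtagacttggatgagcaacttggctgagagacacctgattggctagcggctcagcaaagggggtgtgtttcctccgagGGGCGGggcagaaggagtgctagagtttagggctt

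The letters GGGCGG, read on both strands of the 300-base window, were present at 6 of 8 members (ULBP1, ULBP2, ULBP3, MICA, MICB and RAET1G), and 45.0% of all 35116 promoters held them. TGATGNAA was found at ULBP2 alone, 20 bases after the start, against 3.62% of all promoters. GAANNTTC was found at MICA and MICB, against 6.77%. TGACGTCA (1.85% of all promoters) and TTTCGCGC (0.515%) were in no member's window. The MICA and MICB upstream sequences were 82.7% identical, while the next most alike pair, ULBP2 and RAET1G, reached 53.8%. These matches describe letters only.

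POLR1D itself was measured first. In HT29 its normalized read count was 6036, 4711, 4433 and 5010 in SCR, 3414 and 3492 with siPOLR1D2, and 2858 and 2550 with siPOLR1D3. All 4 silenced libraries lay below every SCR library (log2 fold change −0.72, exact permutation p = 0.0286, 2-sided and the smallest that 4 against 4 allows), yet limma did not call it (adjusted p = 0.355). The study's own DESeq2 test called POLR1D lower in HT29, and the study also reported its knockdown by RT-PCR. In SW480 the SCR values ran from 1829 (lowest) through 2030 (median) to 2599 (highest), and the silenced values from 843.4 through 976.1 to 1336. All 6 silenced libraries again lay below every SCR library, with a log2 fold change of −1.04 (SE 0.13, limma adjusted p = 0.000991).

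Both lines carried epithelial markers. EPCAM had a SCR mean of 25440 in HT29 and 23610 in SW480, and KRT8 or KRT18 was the most abundant of 7 epithelial markers in every library. CDX2 was near 0 in HT29 SCR libraries (highest 0.465), and KRT20 was near 0 in SW480 SCR libraries (median 4.27). The study, in contrast, describes CDX2 as expressed in HT29 and reports its knockdown there, and the reason for this difference was not tested. The receptor gene KLRK1 had a mean of 24.4 over the 20 libraries, and the 9 NK and T cell markers summed to 41.5 to 106.5 in HT29. In SW480 they summed to 1307 to 3544, most of it PRF1 (1028 to 3262).

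Some libraries stood apart. In SW480 the first principal component held 42.0% of the variance and split the libraries into 2 sides. Side 1 held SCR replicates 1 to 3 with siPOLR1D2 replicates 1 and 2. Side 2 held the other 3 SCR libraries, replicate 3 of siPOLR1D2 and every library with siPOLR1D3. The split was not clean for SCR replicate 1, which lay at −14.11. The rest of side 1 ran from −71.49 to −52.7, and side 2 from 21.84 to 53.69. Of the 5 fibroblast markers, the sum was 235.1 to 582.6 on side 1 and 627.2 to 1252 on side 2, mostly COL1A1, PDGFRB or LUM, with no marker at 0 except 1 in siPOLR1D2 replicate 1. In HT29 that sum was 17.4 to 84.3. What set the sides apart was not tested. In HT29 the first component (43.3%) set SCR replicate 1 apart, with a value of −88.29 while the other 7 ran from −18.67 to 21.14.

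In unsilenced cells, levels were compared between genes per kb of the longest coding transcript. That length includes untranslated parts, while the RNA was captured with an exome panel. How far capture and the length used shape the order of genes was not tested. In HT29 SCR libraries, MICA had the highest mean (180.8 per kb), then ULBP2 (153.5), RAET1L (56.9), ULBP3 (50.8), ULBP1 (29.03), RAET1G (11.3), MICB (9.13) and RAET1E (5.73). Only the step from ULBP2 to RAET1L had ranges that did not overlap between neighbours. In SW480 the order was ULBP3 (334.7), ULBP2 (201.4), MICA (152.0), RAET1L (147.2), MICB (95.8), ULBP1 (57.0), RAET1G (40.4) and RAET1E (29.5), and every pair of neighbours overlapped. That order is of the mean over both sides. Taken by side, a choice made after seeing the data, RAET1L came second on side 1 (241.5) and sixth on side 2 (53.0), where ULBP3 (185.0) and ULBP2 (184.1) were nearly equal. The place of MICA rests on 2 rows with identical values being summed. With such rows counted once, also chosen after seeing the data, MICA had 139.1 per kb in HT29, below ULBP2, and 124.4 in SW480, below RAET1L. The 2 lines were normalized separately, so levels across them were not tested.

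**Figure D1:**
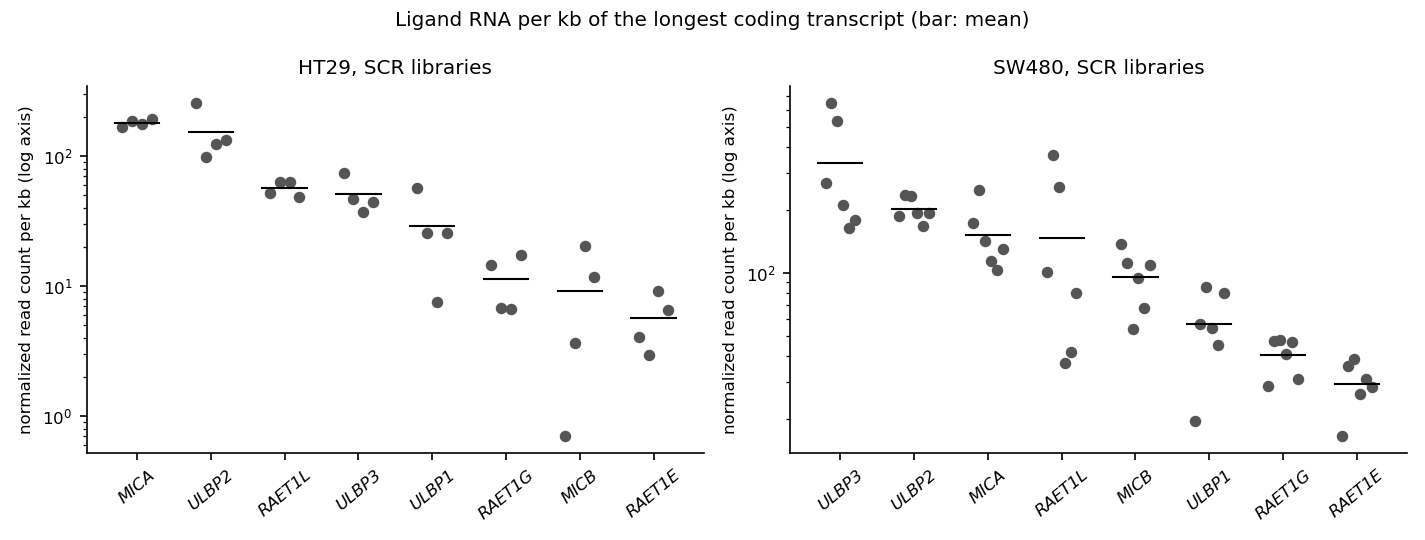
Normalized read count per kb of the longest coding transcript (log axis) for each ligand in the 4 HT29 and 6 SW480 SCR libraries, where each point is a library and each bar the mean. With all rows summed, MICA has the highest mean in HT29 (180.8) and ULBP3 in SW480 (334.7), and RAET1E has the lowest in both (5.73 and 29.5). How far exome capture and the length used shape this order was not tested.

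The spread between SCR libraries was wide for some members. MICB, a MIC protein gene, had 1.73, 8.90, 49.9 and 28.8 in the HT29 SCR libraries and 131.6 to 337.4 in the SW480 ones. In SW480, RAET1L had a SCR mean of 310.3 on side 1 and 68.1 on side 2, and ULBP3 had 478.5 and 182.8. RAET1E (63.6 and 60.1) and ULBP1 (169.7 and 188.5) had nearly the same SCR mean on both sides.

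**Figure D2:**
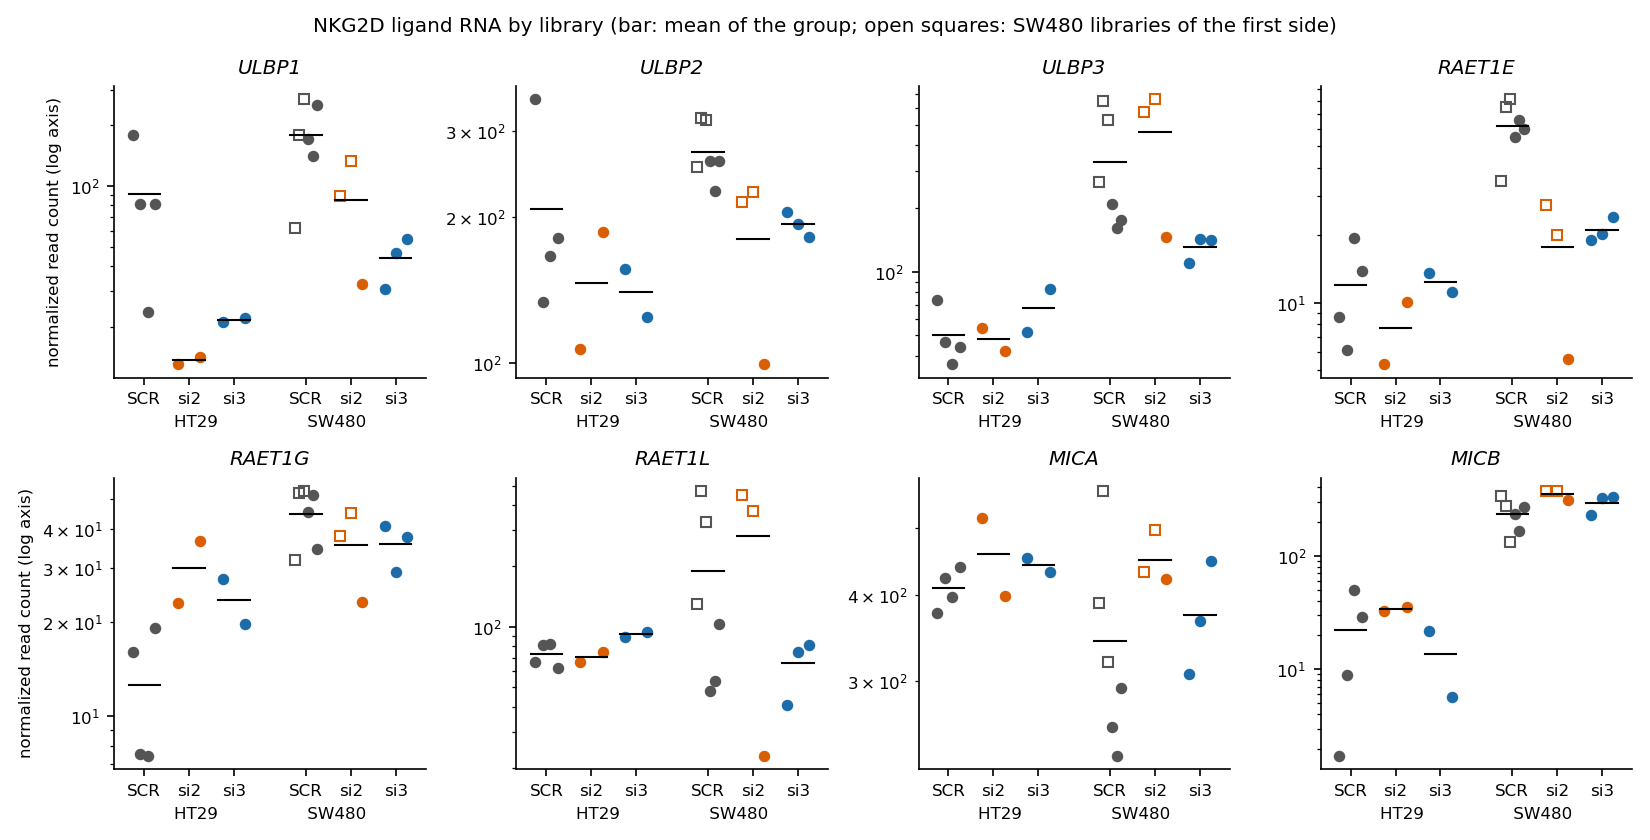
Normalized read count (log axis) of each ligand in all 20 libraries, grouped by line and siRNA, where each point is a library, each bar a group mean, and open squares are SW480 libraries of side 1. In SW480 all 6 silenced libraries lie below every SCR library for RAET1E and for ULBP2.

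In SW480, silencing of POLR1D was followed by less RNA of RAET1E and ULBP1, while the other 6 ligands did not pass the test. RAET1E, which encodes the ligand ULBP4, had SCR values from 34.8 through 62.5 to 81.1, and silenced values of 27.4, 19.96 and 5.61 with siPOLR1D2 and 19.0, 20.3 and 24.0 with siPOLR1D3. The groups did not overlap (log2 fold change −1.71, SE 0.35, 95% interval −2.46 to −0.96, adjusted p = 0.0141 in limma with 6 against 6 libraries). ULBP1, a GPI-anchored ligand, had SCR values from 61.5 through 174.9 to 269.2. Its silenced values were 89.0, 133.1 and 32.6 with siPOLR1D2 and 30.8, 46.5 and 54.7 with siPOLR1D3. Of these, 4 of 6 lay below every SCR library and 6 of 6 below the SCR median, and SCR replicate 1 (61.5) was the low SCR library. The log2 fold change of ULBP1 was −1.52 (SE 0.41, interval −2.40 to −0.64, limma adjusted p = 0.041). The study listed ULBP1, though not RAET1E, among genes it picked from these libraries, so this fall is not independent evidence.

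Over the whole table, 6.73% of 15019 genes passed in that comparison (4.29% lower, 2.44% higher), and 2 of 8 ligands passed, both lower. The balance of directions depends on the scaling. There were 367 genes higher and 644 lower here, but 564 higher and 478 lower with upper quartile scaling. Without that scaling the median log2 fold change was −0.38 over the ligands and 0.013 over all genes. Whether fewer cells of a type or less RNA per cell lay behind a value cannot be told apart in bulk libraries. The p-values measure only the spread between libraries, since nothing in the labels says that replicates were separate cultures.

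The call of RAET1E held when any of the 12 libraries was left out, with adjusted p from 0.00898 to 0.0333. That of ULBP1 was lost without any of 9 of them (all but SCR replicate 1 and siPOLR1D2 replicates 1 and 2), with adjusted p up to 0.0912. Within side 1, with 3 SCR and 2 silenced libraries, ULBP1 had −0.40 (adjusted p = 0.847) and RAET1E −1.31 (0.456), and 0 genes were called by limma. The ULBP1 value there leans on SCR replicate 1 (61.46). The other SCR libraries of side 1 had 178.5 and 269.2, and the silenced ones 88.98 and 133.1. A fit within side 1 without that library was not made. Within side 2, with 3 SCR and 4 silenced libraries, ULBP1 had −2.17 (0.00157) and RAET1E −1.90 (0.0205). With side as a covariate both were still called, ULBP1 at −1.44 (0.0268) and RAET1E at −1.66 (0.00804). With replicate number as a block, adjusted p was 0.159 for RAET1E and 0.216 for ULBP1, and no gene was called. No silenced library carries numbers 4 to 6, so SCR replicates 4 to 6 did not enter the blocked values. Those set SCR replicates 1 to 3, all on side 1, against silenced libraries of both sides.

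**Figure D3:**
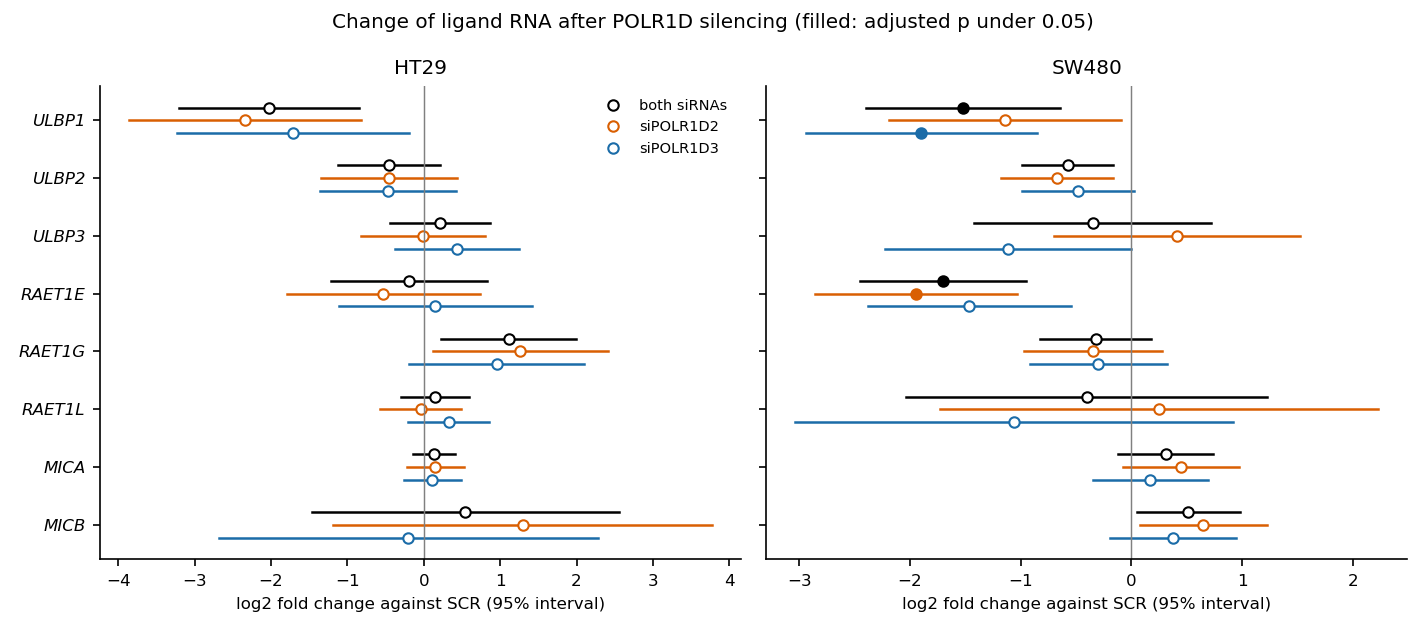
Log2 fold change against SCR with its 95% interval for each ligand in HT29 and SW480, for both siRNAs pooled and for each siRNA, where filled points have an adjusted p under 0.05. Filled points are RAET1E (−1.71 pooled, −1.95 with siPOLR1D2) and ULBP1 (−1.52 pooled, −1.90 with siPOLR1D3), all in SW480.

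Each siRNA was also set against the same SCR libraries, so the 2 comparisons share their controls. With siPOLR1D2 in SW480, 8.16% of genes and 1 of 8 ligands passed: RAET1E, at −1.95 (SE 0.42, adjusted p = 0.0164). That call was lost with replicate number as a block (−1.94, adjusted p = 0.179). ULBP1 had −1.14 with siPOLR1D2 and no block (SE 0.48, adjusted p = 0.162). With 1 library left out at a time it ran from −1.57 to −0.57, and without SCR replicate 1 it was called (−1.42, adjusted p = 0.043). With siPOLR1D3, 6.6% of genes passed (992), though only 118 to 244 did when 1 of its own libraries was left out. Of 8 ligands 1 passed: ULBP1, at −1.90 (SE 0.48, adjusted p = 0.0367). All siPOLR1D3 libraries lie on side 2, and with side as a covariate that call was lost (−1.75, adjusted p = 0.0707), as it was without the trend (0.0535), with the block (0.105) and without any of 8 libraries. RAET1E had −1.47 with siPOLR1D3 (SE 0.42, adjusted p = 0.0566), and 4 of 21 alternatives called it. They were a pseudocount of 5 (0.0393) and leaving out SCR replicate 1 (0.0336), siPOLR1D2 replicate 1 (0.0498) or siPOLR1D2 replicate 3 (0.0146). With side as a covariate it was not called (−1.18, 0.132). Between the 2 siRNAs in SW480, 3.32% of genes (498, or 39 to 791 with 1 library left out) and 0 of 8 ligands passed in limma. An unadjusted p under 0.05 was found for 21.8% of genes and 1 of 8 ligands.

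That ligand was ULBP3, a GPI-anchored member. It had 571.0, 659.0 and 146.9 with siPOLR1D2 and 110.1, 143.7 and 142.3 with siPOLR1D3, against SCR values from 162.1 through 238.4 to 643.8. The siPOLR1D3 libraries lay below every SCR library, as did siPOLR1D2 replicate 3. The siPOLR1D3 to siPOLR1D2 log2 difference was −1.53 (SE 0.59, adjusted p = 0.159), and with side as a covariate it was −0.51 (adjusted p = 0.496). Replicate 3 (146.9) was the only siPOLR1D2 library on side 2. Without it the difference was −2.22 (adjusted p = 0.0393), but each siRNA then lay on 1 side only, so siRNA and side cannot be told apart there. RAET1L went with the sides as well, with 448.1, 372.3 and 22.9 with siPOLR1D2 and 41.1, 75.2 and 80.6 with siPOLR1D3. Its pooled log2 fold change was −0.41 (adjusted p = 0.793), and with side as a covariate 0.015.

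**Figure D4:**
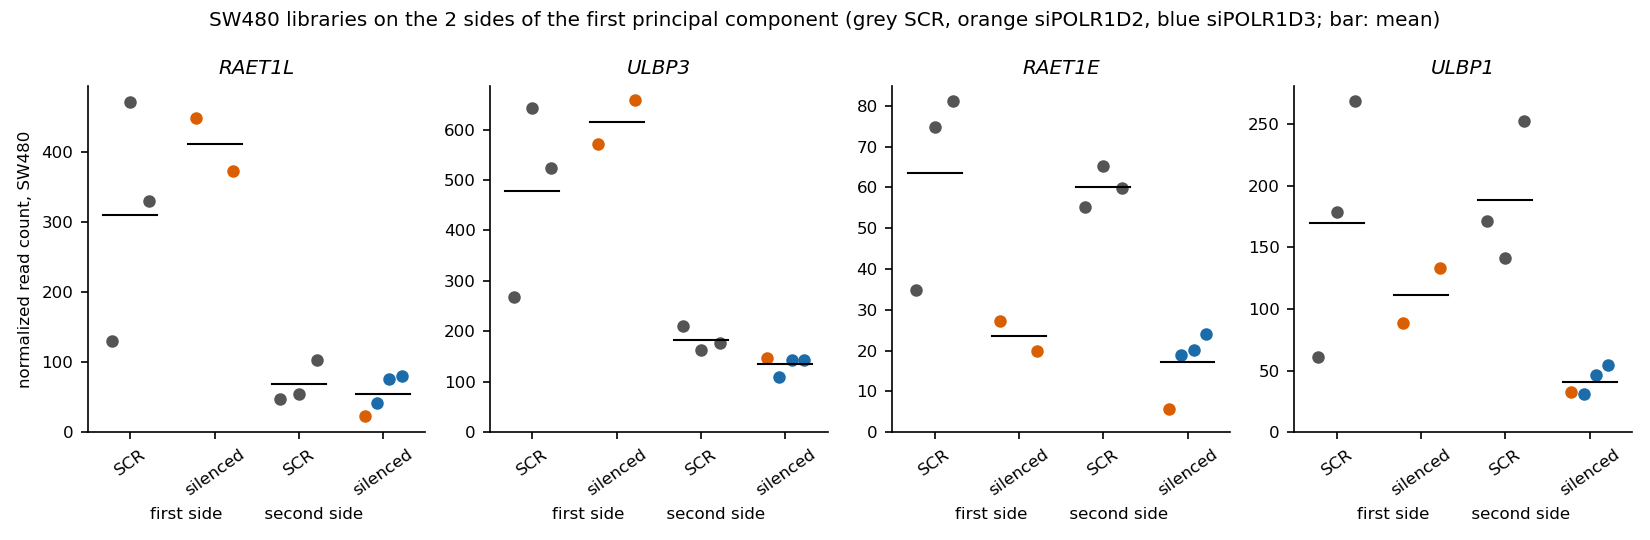
Normalized read count of RAET1L, ULBP3, RAET1E and ULBP1 in the 12 SW480 libraries, split by the side of the first principal component and by SCR or silenced, where each point is a library (grey SCR, orange siPOLR1D2, blue siPOLR1D3) and each bar a mean. RAET1L has SCR means of 310.3 on side 1 and 68.1 on side 2, while RAET1E has 63.6 and 60.1.

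ULBP2, also GPI-anchored, had SW480 SCR values from 225.1 through 259.9 to 317.7. Its silenced values were 214.5, 224.4 and 99.5 with siPOLR1D2 and 204.4, 193.2 and 181.9 with siPOLR1D3. All 6 lay below every SCR library (exact permutation p = 0.00216, 2-sided and the smallest that 6 against 6 allows), yet the log2 fold change of −0.58 (SE 0.19) had an adjusted p of 0.0863 in limma. With side as a covariate ULBP2 was called with siPOLR1D2 (−0.76, adjusted p = 0.0155), though not with both siRNAs pooled (−0.52, 0.0593). Without that covariate siPOLR1D2 gave −0.67 (0.0944), and −0.30 (0.32) when replicate 3, the low library at 99.5, was left out. RAET1G had a pooled log2 fold change of −0.32 (SE 0.23, adjusted p = 0.433), with all 6 silenced libraries below the SCR median and 2 below every SCR library.

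The MIC genes, which encode stress-induced MHC class I-like proteins, did not pass the test. In SW480, MICA had SCR values from 234.3 through 307.0 to 565.2, and silenced values of 431.1, 496.3 and 421.2 with siPOLR1D2 and 307.7, 367.0 and 447.4 with siPOLR1D3. All 6 lay above the SCR median and none above every SCR library (log2 fold change 0.31, SE 0.20, adjusted p = 0.38). MICB had SCR values from 131.6 through 249.1 to 337.4, and silenced values of 373.9, 370.6 and 313.0, then 230.1, 320.7 and 332.5. The groups overlapped (0.51, SE 0.22, adjusted p = 0.173).

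The MIC genes were also taken row by row. In HT29 SCR libraries MICA row 5 made up 53.5% of the sum, rows 3 and 4 were identical at 23.0% each, and rows 1 and 2 were near 0. In SW480 SCR libraries the 5 rows made up 20.9, 15.4, 18.2, 18.2 and 27.4%, so row 1, near 0 in HT29, was present, and row 2 ran from 2.57 to 99.9. MICB row 8 made up 70.4% of the sum there, and rows 1 and 5 were identical. Only 4 of these 13 rows in HT29 and 7 in SW480 passed the filter and were fitted singly, and none of them was called. The smallest adjusted p was 0.209, for the identical MICA rows 3 and 4 in SW480 with siPOLR1D2 (log2 fold change 0.68), and with both siRNAs pooled it was 0.256, for MICB row 8 in SW480 (0.39). Nothing in the files says what each row stands for. Whether identical rows repeat the same reads or divide reads between them was not tested.

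**Figure D5:**
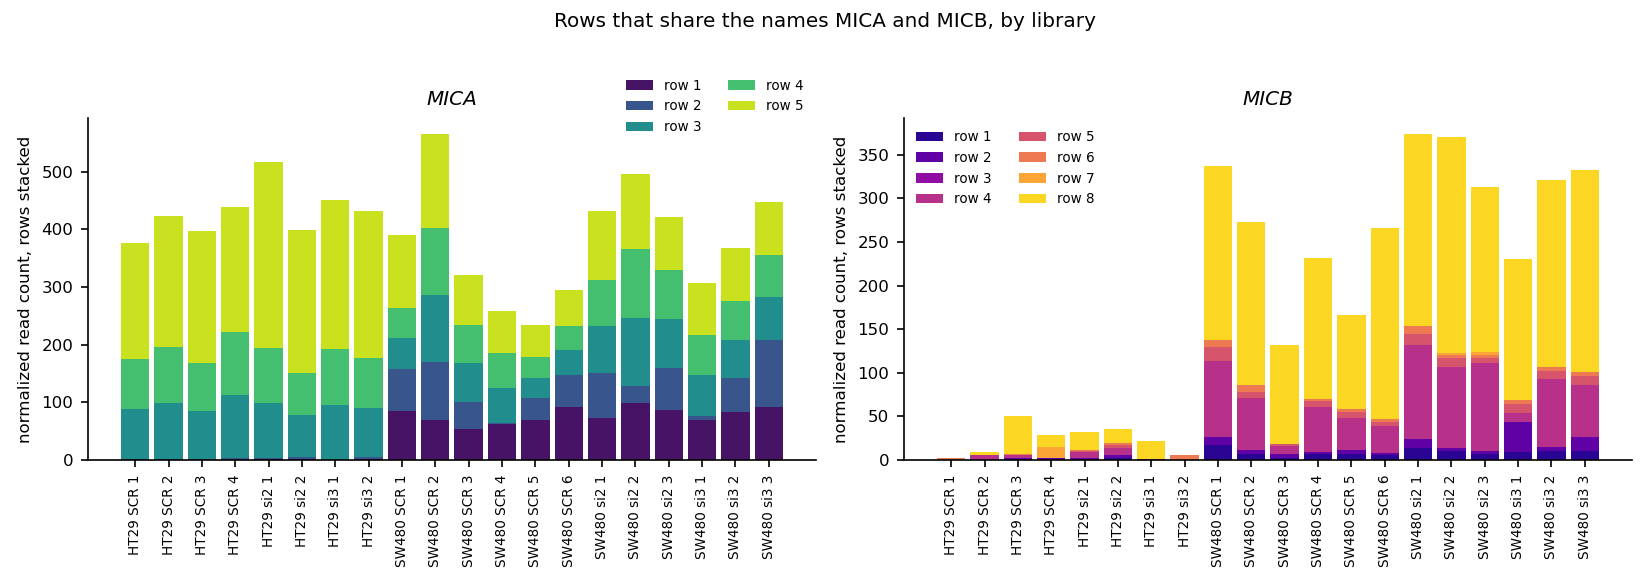
Normalized read count of each row named MICA or MICB, stacked, in all 20 libraries, where each bar is a library and each color a row in file order. In HT29 SCR libraries MICA row 5 makes up 53.5% of the sum, and in SW480 SCR libraries 27.4%.

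In HT29, ULBP1 had 179.0, 81.3, 23.6 and 81.0 in SCR, 13.0 and 14.2 with siPOLR1D2, and 21.0 and 22.2 with siPOLR1D3. All 4 silenced libraries lay below every SCR library (exact permutation p = 0.0286), though SCR replicate 3 (23.6) came close. The log2 fold change was −2.03 (SE 0.53, interval −3.21 to −0.84) with an adjusted p of 0.355. With replicate number as a block it was −2.75 (adjusted p = 0.0203), and 735 genes were called. Silenced libraries carry only numbers 1 and 2, so the blocked value rests on SCR replicates 1 and 2. SCR replicates 3 and 4 do not enter it. With limma and no block 0% of 13274 genes and 0 of 8 ligands passed, and 10.7% of genes and 2 of 8 ligands had an unadjusted p under 0.05. Without SCR replicate 1, which stood apart, ULBP1 had −1.60 (adjusted p = 0.328). These libraries too are among those the study picked ULBP1 from. Its own DESeq2 test called ULBP1 lower in HT29, unlike limma here.

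The other of those 2 was RAET1G, with values above SCR. It had 16.0, 7.54, 7.44 and 19.2 in SCR, 23.1 and 36.6 with siPOLR1D2, and 27.6 and 19.7 with siPOLR1D3. All 4 silenced libraries lay above every SCR library (exact permutation p = 0.0286), with siPOLR1D3 replicate 2 (19.7) just above SCR replicate 4 (19.2). The log2 fold change was 1.11 (SE 0.39, interval 0.23 to 1.99, limma adjusted p = 0.425). The SCR values 7.54 and 7.44 lay under the filter's 10, so RAET1G passed that filter in HT29 only with its silenced libraries. Its fit is therefore not independent of the filter. With siPOLR1D2 alone ULBP1 had −2.34 and RAET1G 1.26 (both with limma adjusted p = 0.837), and with siPOLR1D3, against the same SCR libraries, −1.71 (0.6) and 0.96 (0.674). Per siRNA limma called 0% of genes in HT29, and unadjusted p was under 0.05 for 4.36% of genes and 2 ligands with siPOLR1D2, for 7.77% and 1 ligand with siPOLR1D3, and for 1.56% and 0 ligands between the siRNAs.

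The other 6 ligands overlapped between the HT29 groups. ULBP2 ran from 133.6 to 347.9 in SCR and from 107.2 to 185.5 when silenced (log2 fold change −0.46, adjusted p = 0.567, and −0.18 without SCR replicate 1). ULBP3 ran from 36.5 to 73.5 and from 42.1 to 83.3 (0.21), and RAET1L from 62.6 to 81.8 and from 66.8 to 93.8 (0.14). RAET1E, which fell in SW480, was scarce here, at 6.17 to 19.5 and 5.29 to 13.6 (−0.19, adjusted p = 0.885). MICA ran from 376.1 to 438.6 and from 398.7 to 516.5 (0.13), and MICB from 1.73 to 49.9 and from 5.74 to 35.3 (0.55, and −0.25 without SCR replicate 1).

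Whether the lines differed in their change was tested directly. Of 12724 genes 0.0393% passed, and 0 of 8 ligands did in limma, while 8.58% of genes and 2 of 8 ligands had an unadjusted p under 0.05. These were RAET1G, with a SW480 minus HT29 difference of −1.43 (SE 0.41, adjusted p = 0.267), and RAET1E, with −1.52 (SE 0.56, adjusted p = 0.409). RAET1G passed the filter in HT29 only with its silenced libraries, so its value here is not independent of that filter. ULBP1 had 0.51 (SE 0.69, adjusted p = 0.906).

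Sequence shared between genes may make some of these values uncertain, which was not tested. Of the 31-base stretches in their transcripts, ULBP2 and RAET1L shared 44.2 and 45.4% with other genes, mostly with each other. RAET1E shared 38.2% of its stretches with other genes, and 33.9% of all its stretches with AL355312.5, a gene that overlaps it and has no row in the files. RAET1G shared 26.7% of its stretches with other genes, with 16.7% of all its stretches in RAET1L and 15.6% in ULBP2. RAET1G and RAET1E also overlap RAET1E-AS1 on the opposite strand, and the strand used in counting is not given. ULBP1 shared 14.0% of its stretches, and 12.6% of all its stretches with RAET1K, whose own values ran from 8.44 to 31.4 in SW480.

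Among the genes reported to control ligand RNA, ATF4, which is reported to switch on ULBP1, fell in SW480. Its SCR values there ran from 5961 through 6464 to 8030 and its silenced values from 2839 through 3818 to 5347, with no overlap (log2 fold change −0.81, SE 0.14, adjusted p = 0.00649). The 13 transcription regulators had 2 lower, 0 higher and 11 not called (median −0.05 against 0.013 over all genes), and XBP1 of the unfolded protein response was the other (−0.88, adjusted p = 0.0111). ATF4 and XBP1 are among the genes the study picked from these libraries, so neither is independent evidence. With siPOLR1D3 alone MYC was lower as well (−0.73, adjusted p = 0.0108, list median −0.18). In HT29 the ATF4 values were 3308 to 5698 in SCR and 2560 to 3002 when silenced, again without overlap (log2 fold change −0.71, exact permutation p = 0.0286), and 0 of 13 were called by limma (adjusted p from 0.355, median 0.07 against 0.00019).

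Of 12 ATF4 target genes, 9 fell, 0 rose and 3 were not called in SW480 (median −1.72), where 4.29% of all genes were lower. They included ASNS for asparagine synthesis (−1.79, adjusted p = 0.00166), PPP1R15A, which helps restart translation after stress (−1.94, 0.00275), and PHGDH for serine synthesis (−1.22, 0.00564). TRIB3 (−1.70, 0.0177), SESN2 (−1.93, 0.0211) and DDIT3 (−1.74, 0.0224) followed. Against the same SCR libraries, 3 of 12 were lower with siPOLR1D2 (median −1.23, with 5% of all genes lower) and 10 of 12 with siPOLR1D3 (median −2.04, with 4.45%). These shares of all genes depend on the scaling. With siPOLR1D2 751 genes were lower, but 669 lower and 631 higher with upper quartile scaling. With siPOLR1D3 669 were lower, but 429 lower and 507 higher with that scaling. Set directly against each other, siPOLR1D3 and siPOLR1D2 had 0 of 12 called in limma (median −0.74, smallest adjusted p = 0.0816). This list shares genes with those the study picked from these same libraries, so its direction is not independent evidence. In HT29 all 12 had negative values (median −1.77), with 0 called in limma.

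Of 7 regulators of ligand RNA and protein, 5 had values. MARCHF4 and MARCHF9 were not found under those names and may be among the 15 names that look like dates. In SW480 1 fell and 4 were not called (median −0.28), and the 1 was IGF2BP2, an RNA-binding protein (−0.65, SE 0.11, adjusted p = 0.00564). With siPOLR1D2 alone IGF2BP3 was lower as well (−0.76, adjusted p = 0.0137, list median −0.23). In HT29 0 of 5 were called (median −0.01). Of 5 subunits of the enzyme that attaches GPI anchors, 1 was higher and 4 were not called in SW480 (median 0.07): PIGU, at 0.46 (adjusted p = 0.0407), a call lost without any of 10 of the 12 libraries. In HT29 0 of 5 were called (median −0.08).

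The shedding list, with the proteases that cut ligands from the surface, had 0 of 6 tested genes called in SW480 (median −0.16) and 0 of 4 in HT29 (median −0.26). Its 2 most abundant genes, PDIA6 and ADAM10, had −0.04 and −0.04 in SW480. The 4 DNA damage kinases had 0 called in either line (medians −0.07 and 0.08), with ATM at −0.11 and ATR at −0.07 in SW480. The NKG2D receptor complex had 2 genes tested in SW480 and 1 in HT29, with 0 called (medians −0.30 and −0.07), KLRK1 at 0.23 and HCST at −0.83 in SW480.

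Among other ligands and receptors through which NK cells act on target cells, 1 death receptor passed the pooled test. Of 6 further activating ligands 0 were called in either line (medians −0.21 in SW480 and −0.30 in HT29), with BAG6 at 0.10 and NECTIN2 at −0.22 in SW480, though PVR was lower with siPOLR1D3 than with siPOLR1D2 there (−0.62, adjusted p = 0.0248, list median −0.043). Of 9 inhibitory ligands 0 were called (medians −0.02 and −0.25), with CDH1 at 0.16 and B2M at −0.08, though HLA-E was lower with siPOLR1D3 than in SCR in SW480 (−0.40, adjusted p = 0.0397, list median −0.034). Of 3 death receptors and ligands used by NK cells, TNFRSF10B, a receptor for TRAIL, fell in SW480 (−1.02, SE 0.21, adjusted p = 0.0136). The other 2 were not called (median −0.30), and 0 of 3 were called in HT29 (median 0.26).

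The marker lists were counted as well. Of 7 epithelial markers 6 were not called in SW480 (median 0.16), and KRT20, a keratin of mature gut epithelium, was higher (2.75, SE 0.48, adjusted p = 0.00698). Its SCR values were 1.73 to 11.2 and its silenced values 20.7 to 94.6. KRT20 passed the filter on low values only through its silenced libraries, so its call is not independent of that filter. In HT29 0 of 6 were called (median −0.01). The NK and T cell markers had 0 of 5 called in SW480 (median 0.09, PRF1 −0.02 and NCAM1 0.09) and 0 of 4 in HT29 (median −0.06). The fibroblast markers had 0 of 4 called in SW480 (median −0.18, COL1A1 0.25 and PDGFRB −0.61) and 0 of 1 in HT29 (COL1A1, 1.17). Per siRNA in SW480, LUM was lower with siPOLR1D3 than in SCR (−1.29, adjusted p = 0.00696), while the other 3 fibroblast markers had positive values and the median was 1.00. LUM was also lower with siPOLR1D3 than with siPOLR1D2 (−1.32, adjusted p = 0.0198), again with the other 3 positive (median 0.94). In that comparison NCAM1 was lower (−1.75, adjusted p = 0.0254, median −0.69 over the 5 NK and T cell markers) and CDX2 higher (1.72, adjusted p = 0.0387), while 4 of the 7 epithelial markers had negative values (median −0.0074).

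The genes whose pattern was most like each member's were found by the smaller of the 2 within-line Pearson correlations, over 8 HT29 and 12 SW480 libraries and 12716 genes. For ULBP1 they were PCK2 (r = 0.946 in HT29 and 0.935 in SW480), GPX8 and TSEN15. For RAET1E they were H1F0 (0.974 and 0.926), SMARCA2 and TMEM237, and for ULBP2 MYL12A (0.924 and 0.927), TIMM9 and CAST. ULBP3 was nearest to RAP1GDS1 (0.914 and 0.887), FAM83G and POR, RAET1L to GOLGA7B (0.825 and 0.915), TNS2 and KLHL17, and RAET1G to TCTN1 (0.754 and 0.768), RASGRF1 and STARD13. MICA was nearest to POLDIP3 (0.853 and 0.861), RDH13 and RCL1, and MICB to HSPA4L (0.905 and 0.903), TARDBP and XPO1. Libraries of all groups enter these correlations, so shared differences between groups and sides count in them.

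Among the members themselves in the 12 SW480 libraries, ULBP3 and RAET1L had r = 0.925, ULBP2 and RAET1E 0.913, and ULBP1 and RAET1E 0.839. In the 8 HT29 libraries ULBP3 and RAET1L had r = 0.174, ULBP2 and RAET1E 0.222, and ULBP1 and RAET1E −0.087. ULBP1 and ULBP2 had 0.758 in SW480 and 0.664 in HT29. Libraries of both sides enter the SW480 values. Within 250 kb of the ULBP and RAET1 cluster, 24 other genes were annotated and 16 had values, and 0 of 7 tested in SW480 and 0 of 6 in HT29 were called. Around the MIC cluster 73 were annotated and 53 had values, with 0 of 21 called in HT29 and 1 of 25 in SW480, MSH5 (−0.74, SE 0.20, adjusted p = 0.0382), where 6.73% of all genes were called.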

How the data were processed

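RNA of 20 libraries from 2 colorectal cancer lines was captured with an exome panel and sequenced as 75 bp paired-end reads. The authors checked reads with FastQC 0.11.5, quantified them with kallisto 0.44.0 and normalized them with DESeq2 1.24.0 (hg38). The deposited values are a signal: normalized read counts per gene row, scaled within each line and not whole numbers. Only these deposited files were used.

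Rows that shared a gene name were summed, which left 36346 names from 40117 rows, 1817 of them with several rows, and 15 names look like dates and were not matched to genes. The values of a library summed to 17600000 to 21100000 in HT29 and 19900000 to 23000000 in SW480. If the commonest low value of a library stands for 1 read, reads ran from 13500000 to 22800000 and from 18700000 to 27600000. Only 22.4 to 49.1% of low values were whole after dividing by that value, within 0.01, so counting error is not given. Replicates were compared in case any was a copy of another, and no 2 held the same values (squared difference over sum, mean 11.1 to 218.1 per row).

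Tests used limma 3.58.1 in R 4.3.3 on log2(value + 1), with an empirical Bayes mean-variance trend and Benjamini-Hochberg adjustment over all genes with at least 10 in at least 4 (HT29) or 6 (SW480) libraries. Comparisons were silenced against SCR within each line, each siRNA against SCR, siPOLR1D3 against siPOLR1D2, and the difference between lines. A gene is called with an adjusted p under 0.05. Exact permutation tests over libraries, 2-sided, were run for single members, POLR1D and ATF4. The fits were tested on simulated data.

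Tables were handled with Python 3.11.15, pandas 2.3.3 and numpy 2.4.6, sequences with biopython 1.88 and plots with matplotlib 3.10.9. Positions and transcript lengths came from GENCODE 29. Shared sequence was counted over stretches of 31 bases, and neighbours within 250 kb. Named genes were all members, POLR1D, the genes called in each list (at most 6, otherwise the 2 with the highest mean), the 3 genes most like each member and any called neighbour.

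The members and lists were chosen with earlier results of these data known. Alternatives were other pseudocounts, filters and scaling, no trend, single rows, replicate number as a block, each library left out, the side of the first component in SW480, and both lines in 1 fit. Identical rows of a member counted once, and SW480 levels by side, were added after seeing the data. Protein sequences and test statistics over the ligands as a set were left out, the first because no table of them was given and the second because the members were chosen with results known.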

Additional observations from a re-analysis of the deposited data

Results flagged for a closer look

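ULBP2 had 99.53 in SW480 siPOLR1D2 replicate 3, while the next silenced library had 181.9. It was the 1 value that stood off among 36 groups checked, where about 1 in 20 would do so by chance. RAET1G had a log2 fold change of 1.11 in HT29, with all 4 silenced libraries above the SCR median, and −0.32 in SW480, with all 6 below it. The difference between the lines was −1.43 (limma adjusted p = 0.267). In HT29 RAET1G passed the filter on low values only with its silenced libraries.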

How the results depend on the processing

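The pooled SW480 call of RAET1E was kept in 22 of 24 alternatives and lost with the replicate block and within side 1. That of ULBP1 was kept in 12 of 25, and it was lost without any of 9 libraries, without the filter, without the trend, with the block and within side 1. The values below are log2 fold changes with limma adjusted p, or counts of genes called.

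Replicate number as a block gave 735 genes called in HT29 with both siRNAs (8 with siPOLR1D2, 23 with siPOLR1D3) and 1 ligand, ULBP1 (−2.75, adjusted p = 0.0203). ULBP3 had −0.058 and RAET1E 0.35 there. In SW480 the block gave 0 genes and 0 ligands pooled, with ULBP1 at −1.35 (0.216), RAET1E at −1.70 (0.159) and MICA at −0.021. With the block siPOLR1D2 had 20 genes and 0 ligands, siPOLR1D3 had 728 genes and 0 ligands, siPOLR1D3 against siPOLR1D2 had 39 genes and the difference between lines 97. Libraries of equal number did not pair: their residuals had a mean correlation of −0.037 over 6 HT29 pairs (−0.174 to 0.038) and −0.015 over 9 SW480 pairs (−0.595 to 0.391). With the block, SCR libraries whose number no silenced library carries did not enter the values against SCR. These were replicates 3 and 4 in HT29 and replicates 4 to 6 in SW480. Why the block changed the counts was not tested.

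Without the filter SW480 had 666 genes and 1 ligand called, RAET1E, while ULBP1 was lost (−1.52, 0.0591), and 289 genes were called between the siRNAs. With a filter at 50, which drops RAET1E, SW480 had 1 ligand pooled and 0 with siPOLR1D2, and the difference between lines had 8 genes. Without the trend SW480 had 1 ligand pooled, RAET1E, while ULBP1 was lost (−1.52, 0.0561), and 0 ligands with siPOLR1D3. There were then 293 genes between the siRNAs and 3 for the difference between lines. A pseudocount of 5 gave 2 ligands with siPOLR1D3. Fitting both lines at once gave 4 genes in HT29.

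With side as a covariate SW480 had 1993 genes pooled, 2241 with siPOLR1D2 and 213 between the siRNAs, with 2 ligands for siPOLR1D2, ULBP2 (−0.76, 0.0155) joining RAET1E, and 0 for siPOLR1D3, where ULBP1 had −1.75 (0.0707), and RAET1L at 0.015. ULBP1 (−1.44, 0.0268) and RAET1E (−1.66, 0.00804) were still called pooled. Within side 1 there were 0 genes and 0 ligands, with ULBP1 at −0.40 (0.847), RAET1E at −1.31 (0.456), ULBP3 at 0.45 and RAET1L at 0.58. Within side 2 there were 1897 genes, with ULBP1 at −2.17 (0.00157). Why the sides differed was not tested.

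When the fits were repeated without 1 library at a time, HT29 had 0 to 1 genes called pooled and 0 to 2 with siPOLR1D3, MICB had −0.25 to 1.16 and RAET1E −0.44 to 0.065. SW480 had 533 to 1278 genes and 1 to 2 ligands pooled, ULBP1 −1.80 to −1.35 and RAET1L −0.84 to 0.0098. With siPOLR1D2 there were 448 to 1825 genes and 1 to 2 ligands, and with siPOLR1D3 118 to 1358 genes and 0 to 2 ligands. Between the siRNAs there were 39 to 791 genes and 0 to 1 ligands, and for the difference between lines 1 to 14 genes. DDIT3 had an adjusted p of 0.0502 without SW480 SCR replicate 6 and 0.0503 without siPOLR1D3 replicate 3.

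Identical MIC rows were also counted once, an alternative chosen after seeing the data. MICA then had 139.1 per kb in HT29 SCR libraries, where all rows gave 180.8, and 124.4 in SW480, where they gave 152.0. MICA had a pooled log2 fold change of 0.20 (0.566) in HT29 and 0.27 (0.452) in SW480, and MICB 0.51 (0.83) and 0.51 (0.172). No gene count or call changed.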
